A study of Mus musculus with 16 samples.

Results

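Cap1, Gnb1, Efhd2, Vamp3, Noc2l, Mul1 and Camk2n1 are 7 genes of mouse chromosome 4 with at least 1 array probe set that differed between untreated SAMP8 mice and their Control line in the hippocampus. A probe set is a group of short probes designed against a stretch of a gene's transcript. All probe sets with 1 of these symbols as their single gene in the platform annotation were taken. That gave 18 probe sets of 7 genes, out of 45037 probe sets on the array after control features were removed. All 18 passed the filter on low values, which kept 23905 probe sets with a value over 4 log2 on at least 4 arrays. One probe set of Gnb1 passed it through the Control arrays alone and one of Noc2l through the arrays of SAMP8 mice alone. The genes were chosen by their values in untreated SAMP8 minus Control, so everything that follows on that comparison describes these genes and tests nothing.

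The 16 Affymetrix arrays carried hippocampal RNA of 16 males, each 12 months old, with 1 mouse per array and 4 mice per group. The AbPP antisense group were SAMP8 mice given an intravenous oligonucleotide against the message of AbPP, the amyloid beta precursor protein. The Random antisense group were SAMP8 mice given an intravenous oligonucleotide of random sequence. The SAMP8 group were untreated mice of this senescence-accelerated line, which has memory deficits at 12 months. The Control group were untreated mice of a 50% backcross of SAMP8 with the CD-1 stock, which shows no such deficits and is itself 50% SAMP8. The array of Random antisense 1 has a treatment entry that says none, against its title, source and description, and it was kept with Random antisense.

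Cap1, Gnb1 and the other genes serve different parts of a neuron. CAP1, cyclase-associated protein 1, recycles actin monomers together with cofilin, and GNB1 is a beta subunit of the heterotrimeric G proteins that relay signals of neurotransmitter receptors. CAMK2N1 is an inhibitor of calcium/calmodulin-dependent kinase II, the abundant synaptic kinase of hippocampal neurons, and EFHD2 (swiprosin-1) is a calcium-binding EF-hand protein that binds actin. VAMP3 (cellubrevin) is a SNARE protein of recycling endosomes, MUL1 is an E3 ligase of the outer mitochondrial membrane, and NOC2L is a nucleolar protein that inhibits histone acetyltransferases.

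All 7 markers of hippocampal pyramidal neurons were over 4 log2 on every array, as were 4 of 5 markers of dentate granule neurons, the labelled tissue being hippocampus. All 5 thalamus markers were also over 4 on every array, with means between 7.29 and 9.63 log2, as were 2 of 3 striatum markers on the array. The dentate mean read 7.84, 5.75, 8.0 and 6.16 log2 on the AbPP antisense arrays 1 to 4, and the thalamus mean 7.52, 9.11, 7.29 and 9.09. On the Random antisense arrays the dentate mean lay between 6.86 and 7.34 and the thalamus mean between 8.28 and 9.04. Their part in the results was not tested. Control 4 stood apart: the mean of 6 leukocyte markers was 8.68 log2 there, against 4.53 to 5.16 on the other Control arrays, and its median correlation with the other arrays was 0.957. The same mean lay between 5.13 and 5.44 on the AbPP antisense arrays, between 4.62 and 4.97 on the Random antisense arrays and between 4.85 and 4.98 on the SAMP8 arrays. Of the 6 markers 2 were over 4 on every array, and the T cell genes Cd3e and Cd3g were under 4 on all of them. AbPP antisense 4 also stood apart, with a median correlation of 0.968. The 3' minus 5' difference of the beta-actin control probe sets, a measure of how complete the labelled RNA was, read 1.60, 1.60, 1.21 and 3.89 log2 on the AbPP antisense arrays 1 to 4. It lay between 1.21 and 1.32 on the Random antisense arrays, between 1.02 and 1.36 on the SAMP8 arrays and between 0.84 and 1.21 on the Control arrays. Since the RNA came from whole tissue, fewer cells of a type and less RNA per cell cannot be told apart in any value given here.

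Between untreated SAMP8 and Control, 11 of the 18 probe sets were called at an adjusted p under 0.05 in limma, 8 lower and 3 higher in SAMP8. Over all 23905 tested probe sets 86 were called, or 0.360%, and since this contrast chose the genes nothing is read from the pair of shares. Each gene has at least 1 called probe set. Cap1, Gnb1 and Noc2l have calls on all of theirs, while Camk2n1, Mul1, Efhd2 and Vamp3 each have 1 called and 1 or more that were not. At the edge of the threshold, the Mul1 probe set 1434118_at (difference -1.20 log2) had an adjusted p of 0.0458, just inside. The nearest chromosome 4 probe set outside it, 1436185_at of Ecpas, a proteasome-binding protein, had -0.59 log2 and 0.0632.

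**Figure D1:**
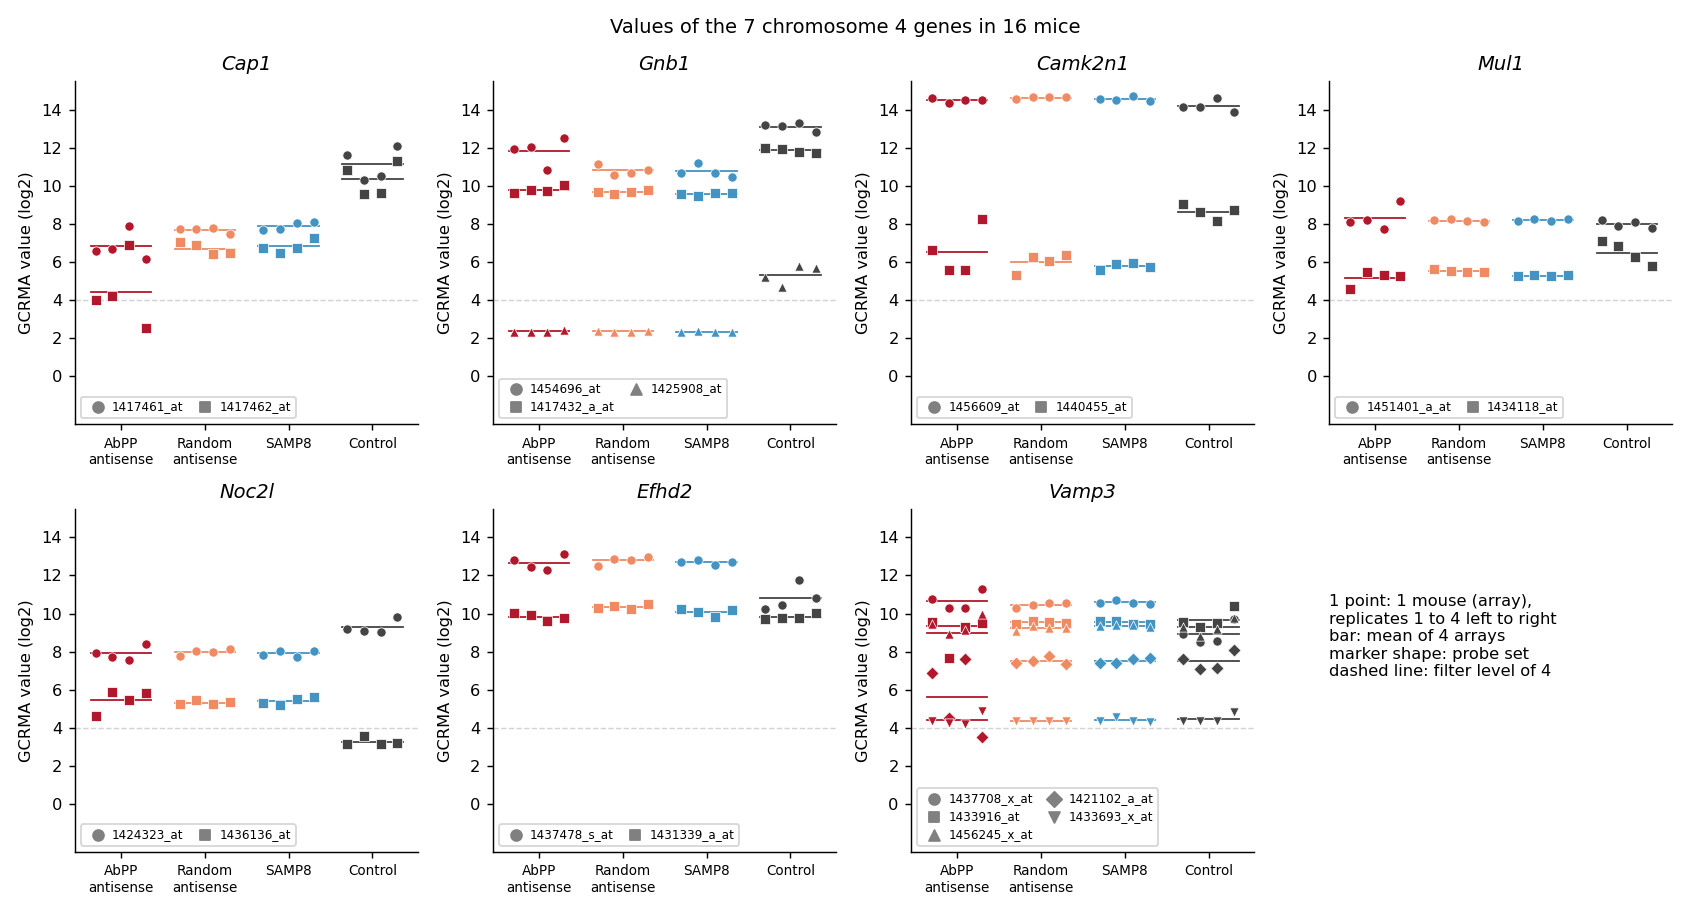
Deposited GCRMA values (log2, vertical axis) of all 18 probe sets of the 7 genes on 16 arrays, by group from AbPP antisense on the left to Control on the right. Points are single mice and bars the mean of 4. Both Cap1 probe sets lie between 2.55 and 8.10 in the 12 SAMP8 mice and between 9.60 and 12.06 in Control, and the 2 Noc2l probe sets differ from Control in opposite directions.

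Cap1 had the largest difference of the 7 genes. Probe set 1417461_at read 6.57, 6.69, 7.89 and 6.19 log2 on the AbPP antisense arrays 1 to 4, and 7.72, 7.75, 7.79 and 7.49 on the Random antisense arrays. It read 7.68, 7.72, 8.03 and 8.10 in untreated SAMP8 mice, against 11.61, 10.32, 10.51 and 12.06 in Control mice. The 12 SAMP8 mice all lay below the 4 Control mice, with 2.22 log2 between the nearest arrays. SAMP8 minus Control was -3.24 log2 (SE 0.38), a signal 9.46-fold lower in SAMP8. Each fold given for these genes is one of probe set signal. Probe sequences were not at hand, so whether sequence differences between the lines alter that signal was not tested.

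The second Cap1 probe set, 1417462_at, followed the same order. It read 3.99, 4.21, 6.92 and 2.55 log2 on the AbPP antisense arrays, and 7.04, 6.88, 6.40 and 6.47 on the Random antisense arrays. Untreated SAMP8 mice read 6.76, 6.49, 6.75 and 7.27, against 10.82, 9.60, 9.63 and 11.28 in Control mice. Again no SAMP8 mouse reached a Control mouse. SAMP8 minus Control was -3.52 log2 (SE 0.66), 11.4-fold lower in SAMP8. The call on this probe set held in 13 of 26 alternative analyses. It was lost on leaving out any 1 of 11 arrays, which are AbPP antisense 2, the 4 of Random antisense, the 4 of untreated SAMP8 and Control 1 and 4, with differences between -3.67 and -3.20 log2. It was also lost with the replicate block (difference -3.52, adjusted p = 0.102 in limma) and with no filter on low values (adjusted p = 0.0966 in limma).

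Gnb1 was lower in SAMP8 mice on all 3 of its probe sets. The brightest, 1454696_at, read 11.94, 12.03, 10.83 and 12.50 log2 on the AbPP antisense arrays 1 to 4, and 11.15, 10.59, 10.68 and 10.84 on the Random antisense arrays. Untreated SAMP8 mice read 10.68, 11.21, 10.67 and 10.47, against 13.20, 13.14, 13.28 and 12.82 in Control mice. All 12 SAMP8 mice lay below the 4 Control mice, by 0.31 log2 at the nearest pair, which is AbPP antisense 4 and Control 4. SAMP8 minus Control was -2.35 log2 (SE 0.28), 5.11-fold lower in SAMP8.

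Probe set 1417432_a_at of Gnb1 differed by a like amount. It read 9.62, 9.80, 9.70 and 10.03 log2 after AbPP antisense, and 9.68, 9.55, 9.69 and 9.80 after Random antisense. In untreated SAMP8 mice it read 9.55, 9.49, 9.61 and 9.64, against 11.99, 11.96, 11.76 and 11.73 in Control mice. The gap between the 12 SAMP8 mice and the 4 Control mice was 1.70 log2, and SAMP8 minus Control was -2.29 log2 (SE 0.11), 4.89-fold lower in SAMP8. The third probe set, 1425908_at, lay between 2.31 and 2.44 log2 in all 12 SAMP8 mice, at the low end of the array's range, against 5.19, 4.67, 5.82 and 5.69 log2 in the Control mice. Its difference of -3.00 log2 (SE 0.19) rests on values in SAMP8 that are under the filter level of 4. This probe set passed the filter through the Control mice alone, so its difference had to be negative.

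Cap1 and Gnb1 are the 2 genes whose probe sets were all called in 1 direction, and the sequence before their start sites is printed for that reason. For Gnb1 1425908_at the filter fixed that direction. The 250 bases come from RefSeq on the C57BL/6J reference (GRCm38.p6), so they are not the lines' own sequence, which was not analysed here. Capitals mark GC boxes (GGGCGG or CCGCCC on the other strand) and CCAAT boxes (CCAAT or ATTGG).
Cap1, chr4:122886077-122886326, minus strand: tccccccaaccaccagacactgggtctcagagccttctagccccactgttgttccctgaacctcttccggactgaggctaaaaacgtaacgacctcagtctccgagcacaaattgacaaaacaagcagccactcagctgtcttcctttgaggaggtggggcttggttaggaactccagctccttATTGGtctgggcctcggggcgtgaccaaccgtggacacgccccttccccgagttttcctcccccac
Gnb1, chr4:155491111-155491360, plus strand: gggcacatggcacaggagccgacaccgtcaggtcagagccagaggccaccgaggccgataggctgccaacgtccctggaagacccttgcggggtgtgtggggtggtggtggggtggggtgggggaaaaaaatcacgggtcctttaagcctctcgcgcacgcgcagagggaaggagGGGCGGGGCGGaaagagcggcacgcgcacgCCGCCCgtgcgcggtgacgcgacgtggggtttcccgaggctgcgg
The Cap1 window holds 9 CpG and 1 CCAAT box, and the Gnb1 window holds 26 CpG and 3 GC boxes, 2 of which share a base. Neither holds TATAAA on either strand. Over 32851 windows of the same length the median is 6 CpG, 32.7% hold a GC box, 33.8% a CCAAT box and 12.4% TATAAA. RefSeq windows were matched for 5 of the 7 genes, and those of Efhd2 and Noc2l also hold 3 GC boxes each while that of Mul1 holds none.

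Noc2l had 2 probe sets that differed from Control in opposite directions. Probe set 1424323_at read 7.95, 7.71, 7.58 and 8.41 log2 after AbPP antisense, and 7.78, 8.04, 8.0 and 8.12 after Random antisense. Untreated SAMP8 mice read 7.81, 8.03, 7.74 and 8.05, against 9.21, 9.11, 9.01 and 9.83 in Control mice. The difference of -1.38 log2 (SE 0.19) is 2.61-fold lower in SAMP8, with no overlap between the 12 SAMP8 mice and the 4 Control mice.

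The other probe set, 1436136_at, was higher in every SAMP8 mouse than in any Control mouse. Its values were 4.62, 5.86, 5.48 and 5.82 log2 after AbPP antisense, and 5.28, 5.45, 5.26 and 5.33 after Random antisense. They were 5.30, 5.22, 5.49 and 5.60 in untreated SAMP8 mice, against 3.14, 3.56, 3.16 and 3.18 in Control mice, all under the filter level of 4. SAMP8 minus Control was 2.14 log2 (SE 0.22). The probe set passed the filter through the SAMP8 mice alone, so its difference had to be positive, and no fold is given against Control values under the filter level. Among the 33 other genes with a called probe set and at least 2 tested, 1 (Galc, a lysosomal enzyme of myelin lipid breakdown) had all of its probe sets called, also in both directions.

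Camk2n1 had 2 probe sets that did not move together. On 1440455_at the AbPP antisense arrays read 6.61, 5.60, 5.57 and 8.24 log2, and the Random antisense arrays 5.33, 6.28, 6.06 and 6.39. Untreated SAMP8 mice read 5.61, 5.88, 5.95 and 5.74, against 9.06, 8.63, 8.18 and 8.72 in Control mice. SAMP8 minus Control was -2.85 log2 (SE 0.45), 7.21-fold lower in SAMP8. AbPP antisense 4, at 8.24, was the one SAMP8 mouse inside the Control range.

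The brighter Camk2n1 probe set, 1456609_at, did not pass the threshold. It read 14.58, 14.35, 14.53 and 14.50 log2 after AbPP antisense, 14.54, 14.66, 14.64 and 14.67 after Random antisense, and 14.58, 14.51, 14.72 and 14.48 in untreated SAMP8 mice. The Control mice read 14.15, 14.14, 14.63 and 13.89, which overlaps the SAMP8 mice, and SAMP8 minus Control was 0.36 log2 (SE 0.14).

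Mul1 showed the same split. Probe set 1434118_at read 4.58, 5.49, 5.31 and 5.25 log2 after AbPP antisense, 5.62, 5.55, 5.49 and 5.50 after Random antisense, and 5.29, 5.30, 5.28 and 5.30 in untreated SAMP8 mice. The Control mice read 7.08, 6.84, 6.26 and 5.80, all above the 12 SAMP8 mice, with 0.18 log2 between the nearest arrays. SAMP8 minus Control was -1.20 log2 (SE 0.24), 2.30-fold lower in SAMP8, and its call held in 7 of 25 alternative analyses. It was lost on leaving out any 1 of 13 arrays, which are AbPP antisense 2 and 3, the 4 of Random antisense, the 4 of untreated SAMP8 and Control 1, 2 and 3, with a difference of -1.28 log2 at most in size, and with the replicate block (adjusted p = 0.112 in limma). It was lost as well with no filter, with only the 8 arrays compared, with a trended robust fit and with Random antisense 1 placed with SAMP8, at adjusted p between 0.0513 and 0.273 in limma. The brighter probe set, 1451401_a_at, lay between 7.73 and 9.22 log2 in the 12 SAMP8 mice and between 7.78 and 8.18 in the Control mice, and SAMP8 minus Control was 0.22 log2 (SE 0.23).

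Efhd2 was higher in SAMP8 on its brighter probe set. On 1437478_s_at the values were 12.83, 12.42, 12.26 and 13.11 log2 after AbPP antisense, and 12.50, 12.88, 12.82 and 12.96 after Random antisense. They were 12.69, 12.82, 12.53 and 12.70 in untreated SAMP8 mice, against 10.24, 10.45, 11.73 and 10.84 in Control mice. No SAMP8 mouse overlapped a Control mouse, and SAMP8 minus Control was 1.87 log2 (SE 0.27), 3.66-fold higher in SAMP8. The other probe set, 1431339_a_at, read 10.25, 10.08, 9.80 and 10.18 in untreated SAMP8 mice and 9.72, 9.78, 9.77 and 10.04 in Control mice. These overlap, and the difference was 0.25 log2 (SE 0.13).

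Vamp3 had 1 called probe set of 5. Probe set 1437708_x_at read 10.74, 10.27, 10.30 and 11.29 log2 after AbPP antisense, and 10.30, 10.45, 10.56 and 10.57 after Random antisense. Untreated SAMP8 mice read 10.58, 10.69, 10.56 and 10.51, against 8.93, 8.51, 8.54 and 9.69 in Control mice. The 12 SAMP8 mice lay above the 4 Control mice, and SAMP8 minus Control was 1.67 log2 (SE 0.25), 3.17-fold higher in SAMP8. The other 4 probe sets differed by between -0.15 and 0.09 log2, with SE from 0.15 to 0.64, and their groups overlapped. The _x_at ending marks a probe set that may also bind other transcripts. A second probe set of that kind, 1456245_x_at, read 9.35, 9.40, 9.42 and 9.29 log2 in untreated SAMP8 mice and 9.28, 8.83, 9.18 and 9.79 in Control mice.

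In all, 10 of the 18 probe sets had all 12 SAMP8 mice on one side of the 4 Control mice, against 1.10% of all tested probe sets. Since untreated SAMP8 minus Control chose the genes, nothing is read from this pair of shares either. The 10 are all among the 11 called ones, and the exception is Camk2n1 1440455_at. Among the 10, Gnb1 1425908_at passed the filter through the Control mice alone and Noc2l 1436136_at through the SAMP8 mice alone. The 8 treated mice among the 12 are not part of the means of SAMP8 minus Control. Their spread entered the fit that called it, and they were set against the same 4 Control arrays, so the 3 differences from Control are given only side by side. On Cap1 1417461_at they were -4.29 log2 for AbPP antisense, -3.44 for Random antisense and -3.24 for untreated SAMP8. On Gnb1 1417432_a_at they were -2.07, -2.18 and -2.29 log2 in the same order of groups. On Noc2l 1436136_at they were 2.18, 2.07 and 2.14 log2. Without both Control 4 and AbPP antisense 4, the SAMP8 minus Control differences were -2.93 and -3.20 log2 for the Cap1 probe sets, -2.33 for Gnb1 1417432_a_at and 1.92 for Vamp3 1437708_x_at.

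**Figure D2:**
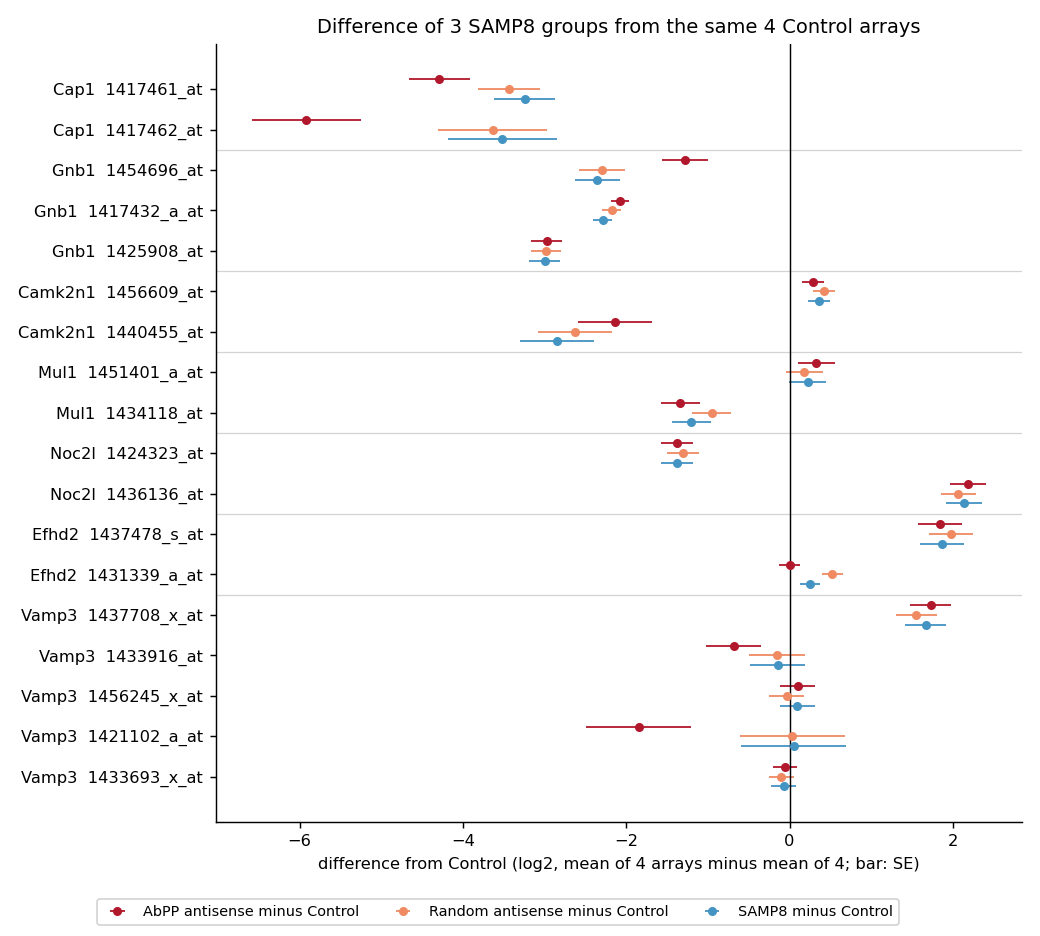
Difference from Control (log2, horizontal axis) for each of the 18 probe sets in AbPP antisense, Random antisense and untreated SAMP8 mice. Points are differences of means of 4 arrays and bars the SE from limma, and all 3 use the same 4 Control arrays. The 3 groups spread most on Cap1 1417462_at, where they lie between -5.92 and -3.52. On Gnb1 1425908_at all SAMP8 mice are at the low end of the array's range.

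The comparison of AbPP antisense with Random antisense has in its means no array of the contrast that chose the genes, although its SE and p come from a fit to all 16 arrays. None of the 18 probe sets was called in it by limma (0 of 18, with 5 at an unadjusted p under 0.05), beside 20 of 23905 tested probe sets, or 0.0837%. The median size of the difference was 0.16 log2 for the 18 probe sets and 0.19 log2 over all tested ones. In 2 of the 18 the AbPP antisense arrays did not overlap the Random antisense arrays, against 7.58% of all tested probe sets. They are 1431339_a_at of Efhd2 and 1434118_at of Mul1, lower after AbPP antisense than after Random antisense. Against untreated SAMP8, Efhd2 1431339_a_at differed by -0.25 log2 after AbPP antisense and by 0.28 after Random antisense. Mul1 1434118_at differed by -0.14 and 0.25 log2 in the same order, so Random antisense lay above untreated SAMP8 on both.

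Efhd2 1431339_a_at had the lowest adjusted p of these genes. It read 10.02, 9.90, 9.62 and 9.78 log2 on the AbPP antisense arrays, and 10.28, 10.39, 10.24 and 10.50 on the Random antisense arrays. AbPP antisense minus Random antisense was -0.52 log2 (SE 0.13, adjusted p = 0.136 in limma). Its exact permutation p was 0.0286 (two-sided), the lowest value possible with 4 arrays in each group. The brighter Efhd2 probe set, which separated the lines, differed by -0.14 log2 (SE 0.27, adjusted p = 0.874 in limma).

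Cap1, Gnb1 and Vamp3 each had a probe set on which AbPP antisense 1, 2 and 4 lay away from the Random antisense mice while AbPP antisense 3 lay with them. On Cap1 1417462_at the deviations of AbPP antisense 1 to 4 from the Random antisense mean were -2.71, -2.49, 0.22 and -4.14 log2. The group difference was -2.28 log2 (SE 0.66, adjusted p = 0.214 in limma), and on Cap1 1417461_at it was -0.85 log2 (SE 0.38, adjusted p = 0.383 in limma). So 3 of 4 AbPP antisense mice were lower for Cap1 than every Random antisense mouse.

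Gnb1 1454696_at deviated the other way, by 1.12, 1.22, 0.01 and 1.69 log2 on the AbPP antisense arrays 1 to 4. Its group difference was 1.01 log2 (SE 0.28, adjusted p = 0.198 in limma). The other Gnb1 probe sets differed by 0.11 and 0.01 log2, so this shift was seen on 1 probe set of 3. Vamp3 1421102_a_at deviated by -0.66, -2.99, 0.11 and -3.98 log2, with a group difference of -1.88 log2 (SE 0.64, adjusted p = 0.277 in limma). The other 4 Vamp3 probe sets differed by between -0.53 and 0.18 log2.

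**Figure D3:**
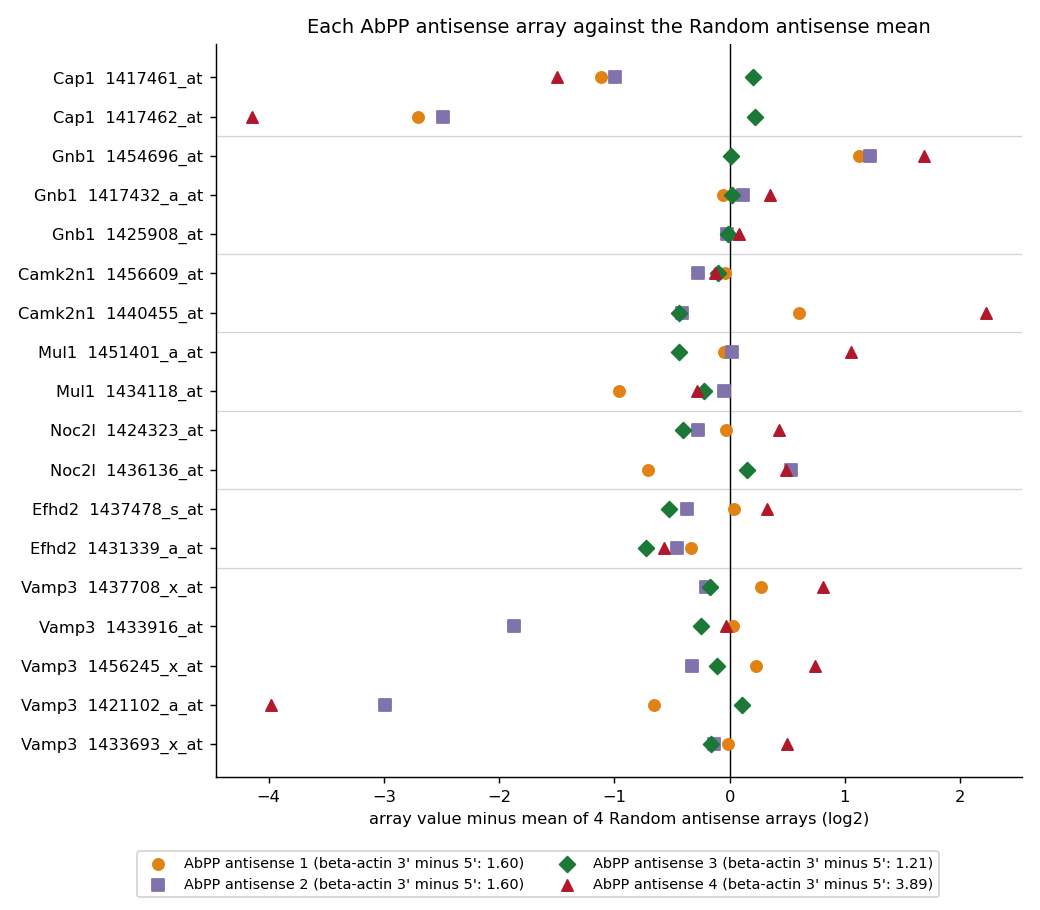
Value of each AbPP antisense array minus the mean of the 4 Random antisense arrays (log2, horizontal axis) for the 18 probe sets, with the beta-actin 3' minus 5' difference of each array in the legend. On Cap1 1417462_at AbPP antisense 3 lies at 0.22 and the others between -4.14 and -2.49. On Gnb1 1454696_at AbPP antisense 3 lies at 0.01 and the others between 1.12 and 1.69.

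AbPP antisense 3 was also the AbPP antisense array with the lowest beta-actin 3' minus 5' difference, 1.21 log2, close to the lowest Random antisense array (1.21), while AbPP antisense 4 had the highest, 3.89. With that difference as a covariate, AbPP antisense minus Random antisense was -1.29 log2 for Cap1 1417462_at (adjusted p = 0.438 in limma). It was 0.63 log2 for Gnb1 1454696_at (adjusted p = 0.395 in limma) and -0.86 log2 for Vamp3 1421102_a_at (adjusted p = 0.568 in limma). The mean of 7 choroid plexus markers also moved with the group, between 4.53 and 6.70 log2 on the AbPP antisense arrays against 7.06 to 8.26 on the Random antisense arrays, and 2 of the 7 markers were over 4 on every array. Its part in these differences was not tested.

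Leaving out AbPP antisense 3 brought 3 of the 18 probe sets past the threshold against Random antisense. They are the probe sets on which this array was already seen to lie with the Random antisense mice. Their adjusted p without it therefore describe and test nothing. Cap1 1417462_at then differed by -3.11 log2 (adjusted p = 0.00209 in limma), Gnb1 1454696_at by 1.34 (adjusted p = 0.003 in limma) and Vamp3 1421102_a_at by -2.54 (adjusted p = 0.0213 in limma). Over all 23905 tested probe sets 896 were called without that array, against 20 with it, 58 without Control 4 and 0 with only the 8 arrays compared (2035 at an unadjusted p under 0.05).

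Untreated SAMP8 arrays helped to choose the genes, and both treated groups were also set against them. Random antisense minus SAMP8 had 0 of 18 called by limma (1 at an unadjusted p under 0.05), beside 0.00% of all tested probe sets, and its differences ran from -0.20 to 0.28 log2. AbPP antisense minus SAMP8 had 0 of 18 called by limma (4 at an unadjusted p under 0.05), beside 0.289%, with the lowest adjusted p of 0.124 for Gnb1 1454696_at (difference 1.07 log2, SE 0.28). The treated mice gave no called change on any probe set of these genes with all 16 arrays in the fit.

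Chromosome 4 genes stand in a reference table of 2923 genes (GRCm38.p6), used here only for names and order. The 7 genes lie in its later part, in the order Cap1, Mul1, Camk2n1, Efhd2, Vamp3, Gnb1, Noc2l. Cap1 has 1881 genes before it and Noc2l has 4 after it. Mul1 and Camk2n1 are next to each other with no listed gene between them, and their brighter probe sets differed between the lines by 0.22 and 0.36 log2 while the dimmer ones differed by -1.20 and -2.85. Elsewhere the genes stand apart: 492 listed genes lie between Cap1 and Mul1, 119 between Camk2n1 and Efhd2, 267 between Efhd2 and Vamp3, 98 between Vamp3 and Gnb1, and 55 between Gnb1 and Noc2l.

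**Figure D4:**
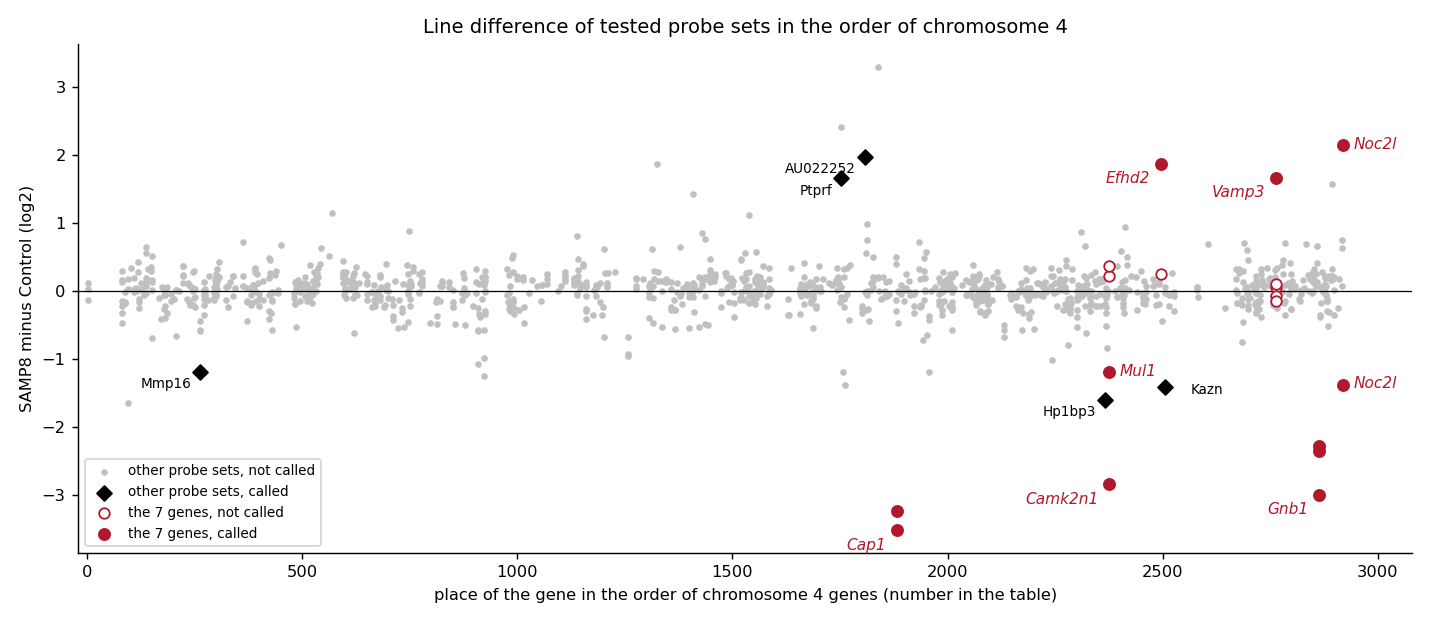
SAMP8 minus Control (log2, vertical axis) of the tested chromosome 4 probe sets against the place of their gene in the order of the chromosome (horizontal axis, number in the table). Filled red points are called probe sets of the 7 genes, open red points are their other probe sets, black diamonds are called probe sets of other genes and grey points the rest. Of the 1227 tested probe sets of other genes on the whole chromosome, 5 were called, and most lie near 0.

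Probe sets of the genes beside the 7 were counted as well. Up to 5 genes with a tested probe set were taken on each side of each gene, 55 genes in all. Mul1 and Camk2n1 share theirs, and Noc2l had none after it. Of the 89 probe sets of these 55 genes, 1 was called between SAMP8 and Control, or 1.12%, beside 0.360% of all tested ones. With 1 call, nothing is read from this pair of shares. The called one is 1435624_at of Kazn, which encodes the cytoskeletal protein kazrin and lies near Efhd2. Its difference was -1.41 log2 (SE 0.17, adjusted p = 0.000685 in limma), with a SAMP8 mean of 3.33 ± 0.10 log2 and a Control mean of 4.74 ± 0.34 log2 (SD, n = 4 each). The brighter Kazn probe set differed by 0.06 log2. Between Cap1 and Noc2l, 2 of 504 probe sets of other genes were called (0.397%), and before Cap1 3 of 723 (0.415%). These chromosome 4 counts leave out the 7 genes, which were chosen for their calls. With the 7 genes included, 16 of 1245 probe sets of chromosome 4 were called (1.29%). On the other chromosomes together, with no called gene left out, 46 of 19141 were called (0.240%).

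Other called genes of chromosome 4 were Hp1bp3, AU022252, Mmp16 and Ptprf. Hp1bp3, a linker-histone-like chromatin protein, had a difference of -1.60 log2 (SE 0.19, adjusted p = 0.000542 in limma) on 1439845_at and -0.19 on its other probe set. It lies close to Mul1 and Camk2n1 in the order of genes, just outside the 5 genes taken before them. Mmp16, a membrane-bound matrix metalloproteinase, differed by -1.20 log2 (SE 0.20, adjusted p = 0.0107 in limma), and its other 3 probe sets by between -0.59 and -0.45. Ptprf, a receptor tyrosine phosphatase of axons and synapses, differed by 1.65 log2 (SE 0.31, adjusted p = 0.0329 in limma), and its other 2 probe sets by 0.06 and 2.41. AU022252 differed by 1.97 log2 (SE 0.29, adjusted p = 0.00365 in limma) on a probe set with a Control mean of 3.78, and by -0.02 on the other. Of the 5 called probe sets, 4 have another probe set of the same gene within 0.20 log2 of no difference.

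The genes that work with these 7 were looked at through 7 lists holding 162 genes, of which 146 were measured. None was called between SAMP8 and Control by limma (0 of 146, 3 at an unadjusted p under 0.05), beside 0.360% called and 1047 of 23905 at that unadjusted p over all tested probe sets. None was called in AbPP antisense minus Random antisense by limma (0 of 146, 13 at an unadjusted p under 0.05), beside 0.0837% and 2935 of 23905. Both counts of calls are near the background, which takes in the dimmer probe sets of a gene as well. A list gene is counted here only on its tested probe set of highest mean, so the shares are not fully alike. The median line difference of the 146 genes was 0.05 log2, against 0.04 over all tested probe sets. Of 24 measured actin turnover genes, the one of smallest p was Tmod1, a cap of actin filament ends, at 0.39 log2 (adjusted p = 0.999 in limma). Of 22 G protein genes it was Gng7, a gamma subunit, at 0.52 log2 (adjusted p = 0.999 in limma).

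No gene of the remaining lists was called on that probe set either. Stx2, a syntaxin, was the gene of smallest p among 29 SNARE genes at 0.20 log2, and Camk1, a calmodulin-dependent kinase, among 16 genes of that group at 0.23 log2. Phb2, a prohibitin of the inner mitochondrial membrane, was so among 17 mitochondrial genes at -0.33 log2, and Ncald, a neuronal calcium sensor, among 12 EF-hand genes at 0.24 log2. Ebna1bp2, a ribosome assembly factor, was so among 26 nucleolar genes at -0.44 log2 (adjusted p = 0.891 in limma).

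None of the closest relatives of the 7 genes was called between the lines on its tested probe set of highest mean. Other probe sets of these relatives were not looked at. Cap2, the other cyclase-associated protein, differed by 0.26 log2 (SE 0.29), Gnb2 by 0.01 (SE 0.12) and Gnb4 by 0.21 (SE 0.25). Efhd1 differed by 0.17 log2, Vamp1 by -0.08, Vamp2 by 0.15, Noc3l by 0.10, Noc4l by -0.14 and Camk2n2 by -0.01. The kinase subunits that CAMK2N1 inhibits differed by 0.20 log2 for Camk2a and 0.17 for Camk2b. Each of these 11 genes had an adjusted p of 0.999 in limma.

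For each of the 7 genes, the other genes whose values ran most alike over the 16 arrays were listed. Probe sets of the 7 genes themselves were left out of this search. Of the genes found, Kazn and Ecpas lie on chromosome 4. Each correlation is a description over 16 arrays that include the line difference itself. For Cap1 1417461_at they were Apod, a lipid carrier of glia (Pearson r = 0.923), and Akr1e1, an aldo-keto reductase (r = 0.913). The line difference was -4.69 log2 on this Apod probe set, 1444564_at, and -0.35 on the other tested one. On the Akr1e1 probe set it was -1.70 log2. For Noc2l 1424323_at the genes were Kazn and again Apod (r = 0.941 for both). Efhd2 1437478_s_at ran with Nudt19, a peroxisomal coenzyme A hydrolase (r = 0.980), and Cep89, a centrosomal protein (r = 0.922), both of chromosome 7.

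Vamp3 1437708_x_at ran with Klc1, a kinesin light chain (r = 0.920), and Ttc3, an E3 ligase (r = 0.914). Gnb1 1454696_at ran with Ecpas of chromosome 4 (r = 0.883) and with 9630050P21Rik (r = 0.881). For the brighter probe sets of Mul1 and Camk2n1, which did not separate the lines, the closest were Kcna6 (r = 0.956) and Rab14 (r = 0.948) for Mul1, and Kcnk1 (r = 0.905) and Tdp2 (r = 0.898) for Camk2n1. Kcna6 and Kcnk1 encode potassium channels, Rab14 a small GTPase of endosomes and Tdp2 a DNA repair enzyme.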

How the data were processed

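The values are the deposited log2 values, which the authors made with GCRMA, per the submitters' processing notes, with a version not given in the sources used here. Labelled cRNA was made from total RNA of the hippocampus of individual mice, as the labels' protocols state. Nothing was renormalized. Control features (64) were removed, leaving 45037 probe sets, of which 34945 have 1 gene symbol, 932 several and 9160 none in the platform annotation. A probe set was tested where it was over 4 log2 on at least 4 of 16 arrays (23905). Groups came from sample titles. limma was fitted to 4 groups of 4 arrays (12 residual degrees of freedom), adjusting p by Benjamini-Hochberg over all tested probe sets of a contrast and a threshold of 0.05. The exact permutation p of a single probe set is two-sided and uses all 70 assignments. The tested probe set of highest mean stands for a gene of the lists or a close relative. Called genes of chromosome 4 are given on their called probe set, and correlated genes on the probe set that correlated.

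The 7 genes, the gene lists and the tests were chosen with earlier results of these data known. The rule for naming genes took all 7 genes with every probe set, called neighbours and list genes or the list gene of smallest p, close relatives, up to 12 called chromosome 4 genes, and the 2 most correlated genes of each. Galc, Ecpas as the nearest probe set outside the threshold and the array measures were chosen after their values were seen.

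Replicate numbers recur across groups. Over 24 pairs of arrays with the same number, deviations from group means correlated between -0.27 and 0.24, and 9 exceeded 0.1. Their median was 0.037, against -0.0077 for other pairs across groups. The numbers were not used as pairs in the main fit, and whether they mark any pairing cannot be told from these values. The number of arrays limits the precision. Alternatives covered the filter, the arrays used, array weights, centring, a trended robust fit, the placing of Random antisense 1, a beta-actin covariate, a replicate block and the mean over probe sets. Fits used limma 3.58.1 in R 4.3.3, and tables and plots used Python 3.11.15 with matplotlib 3.10.9.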

Additional observations from a re-analysis of the deposited data

Results flagged for a closer look

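Within each group of 4 arrays, the values of each of the 18 probe sets were searched for 1 array far from the other 3. Of 72 groups, 4 had one, and chance alone flags about 1 in 20 groups. Vamp3 1433916_at read 7.66 log2 on AbPP antisense 2, against 9.28 to 9.56 on the other AbPP antisense arrays. Gnb1 1425908_at read 2.44 on AbPP antisense 4, against 2.33 to 2.35 on the others, all at the low end of the array's range. Vamp3 1433693_x_at read 4.83 on Control 4, the array with the high leukocyte markers, against 4.34 to 4.37 on the other Control arrays. Noc2l 1436136_at read 3.56 on Control 2, against 3.14 to 3.18 on the others.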

How the results depend on the processing

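With a replicate block, 0 of the 18 probe sets were called in AbPP antisense minus Random antisense, and 71 of all probe sets between SAMP8 and Control, against 86. That last count was 37 with only the 8 arrays compared, 295 with array weights, 123 without both Control 4 and AbPP antisense 4, and 54 to 115 with 1 array left out. Probe sets called beside the 7 genes numbered 0 with the stricter filter and 3 with array weights, against 1. With 1 array left out, 0 to 3 of the 18 were called in AbPP antisense minus Random antisense and 0 to 4 in AbPP antisense minus SAMP8, the highest counts being those without AbPP antisense 3. The mean of both Noc2l probe sets gave 0.38 log2 between SAMP8 and Control. Calls on Efhd2 1437478_s_at and Vamp3 1437708_x_at were lost with only the 8 arrays compared.

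Small uncalled differences of AbPP antisense minus Random antisense turned sign, and the cause was not tested. Mul1 1451401_a_at gave -0.15 without both Control 4 and AbPP antisense 4, -0.15 with array weights, -0.26 with the beta-actin covariate and -0.15 to 0.34 with 1 array left out. Camk2n1 1440455_at gave -0.085 without both, -0.24 with the covariate and -0.085 to 0.80 with 1 left out. Vamp3 1437708_x_at gave -0.034, -0.052 and -0.034 to 0.31, and Vamp3 1456245_x_at -0.068, -0.089 and -0.068 to 0.29, in the same order. Without both, with weights, with the covariate and with 1 left out, Vamp3 1433693_x_at gave -0.10, -0.063, -0.13 and -0.10 to 0.12. Gnb1 1425908_at gave -0.019, -0.011, -0.010 and -0.019 to 0.016, and Noc2l 1436136_at -0.0093, -0.13, -0.020 and -0.025 to 0.39. Noc2l 1424323_at gave -0.24 to 0.039 with 1 array left out.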
